A study of Mus musculus with 4 samples.

Results

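The comparison described here set RNA from unstimulated axons against RNA from unstimulated cell bodies of mouse dorsal root ganglion (DRG) neurons, 2 of the 4 nylon membrane arrays of the study. Both arrays were chosen by their labels, and every one of the 6284 genes that a spot names singly was kept. The neurons came from NIH Swiss mouse embryos at embryonic day 13.5 and grew in Campenot chambers, whose side compartments received the neurons and whose middle compartment is entered by axons, so that RNA of axons can be taken apart from that of cell bodies. The unstimulated axons and unstimulated cell bodies received no stimulation, while the stimulated axons and stimulated cell bodies of the other 2 arrays had 2 h of electrical activity. Per the methods, the medium held horse serum, a fluorinated deoxyuridine with uridine held back dividing non-neuronal cells for the first days, and serum was left out of the medium overnight before stimulation. For the unstimulated cultures the sources used here do not mention that change of medium. Each array carried 1 pool, which the sample records give as 3 coverslips after 3 weeks in culture and 3 µg of total RNA. The methods give other amounts and add that the RNA of both compartments was amplified. The study asked which transcripts of these compartments are regulated by neural activity. With 1 pooled array a side there is no replicate, no p-value is given, and precision is limited by having so few arrays.

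Axons of sensory neurons reach far from the nucleus, and part of the messenger RNA that a neuron makes is carried along microtubules into the axon by motor proteins and RNA-binding proteins. Ribosomes in the axon translate such transcripts locally, which in growing and injured sensory axons supplies cytoskeletal, mitochondrial and translation proteins on site. Transcripts for ribosomal proteins, translation factors, nuclear-encoded mitochondrial proteins and the actin cytoskeleton are known from axons in several species. A compartment can also hold RNA of Schwann cells and fibroblasts that lie along the axons.

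The values are raw intensities of 9600 spots, most of them cDNA clones of a mammalian gene collection that the annotation names by human symbols. An intensity was turned into a z-score, its log10 value less the array's mean over all spots and divided by the array's SD. The z ratio is the z-score in axons minus that in cell bodies, divided by the SD of this difference over all spots, and genes were given the average of their clones. Genes were counted as higher or lower in axons when the z ratio reached 1.4 or -1.4, the threshold named in the methods. Mean log10 intensity was 2.12 in axons against 2.32 in cell bodies. A z ratio is therefore relative to all spots, and a gene with a z ratio above 0 can have the lower raw intensity in axons. The value 10, called the fill-in value here, was read by 120 spots in unstimulated axons and 361 in unstimulated cell bodies. Another 198 and 235 spots read lower. The sources used here do not say what readings of 10 and below stand for. A gene was called measured on both sides, 5228 of 6284, when all its clones lay above the fill-in value of 10 on the cell body arrays and above the 95th percentile of the empty spots on the axon arrays, which was 21.9 in unstimulated axons. It was called bright, as 2608 of those were, when its mean z-score over both unstimulated arrays was above 0, and 623 of these had 2 or more clones.

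How far a value can be taken as that of the named gene was measured before anything else. Across spots, the z-scores of unstimulated axons and unstimulated cell bodies had a correlation of 0.930. The z ratio of the same clone correlated at 0.793 between the unstimulated and the stimulated pair of arrays over 3527 bright measured clones, which share the clone but no array. Clones annotated to the same gene were far less alike. Over 430 pairs of bright measured clones of the same gene, the z ratio correlated at 0.187. Over 1688 pairs of all named clones of the same gene, brightness correlated at 0.10 and the z ratio at 0.095. The same clone, over all 8496 named clones, correlated at 0.524 between both pairs of arrays. The z ratio of 1 clone had an SD of 0.789 between clones of a gene, called the technical SD here. Neighbouring spots and membrane position were taken from spot numbers, here and below. Spots 25 numbers apart were more alike than the 1688 pairs of clones, at 0.35 for brightness and 0.22 for the z ratio over 9192 pairs. Spots next to each other in number were not, at -0.04 and 0.05. All of these are descriptions over spots that share arrays and membrane. A value below is therefore that of a spot under its annotated name, and why clones of a gene differ was not tested. No membrane layout was used here to check that the spots of the deposited values stand in the order of the annotation, and if they did not, the gene names below would not hold. In bulk RNA, fewer cells of a type and less RNA per cell cannot be told apart.

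The genes with the most clones show this spread and, in some cases, a shared direction. RSL24D1, a factor of large ribosomal subunit assembly, had 12 clones, and every one lay below 0, with a mean z ratio of -0.94 ± 0.92 (SD over clones). NPM1, the nucleolar protein nucleophosmin, was at -0.83 ± 0.58 with 1 of 11 clones above 0. Its dimmest clone read 35.2 in axons and 147.5 in cell bodies, and its brightest 5551 in axons and 8489 in cell bodies, at z ratios of -1.59 and 0.38. ACTG1, cytoplasmic gamma-actin, was at -0.96 with 2 of 9 clones above 0 and clones between -2.45 and 0.45. TUBA1B, an alpha-tubulin, was at -0.38 ± 0.81 with 4 of 13 clones above 0, and its 4 brightest clones were the 4 above 0. EEF1A1, the elongation factor that brings transfer RNA to the ribosome, was at -0.65 ± 0.94 over 9 clones, whose mean z-scores over the 4 arrays lay between -2.06 and 1.92. CYCS, cytochrome c of the respiratory chain, was at -0.32 ± 0.58 with 2 of 14 clones above 0, and RPL3, a ribosomal protein, at -0.40 ± 0.89 with 4 of 11. In contrast, RPL13, another ribosomal protein, was at 0.21 ± 0.32 with 6 of 8 clones above 0, and PSMB4, a proteasome subunit, at 0.01 ± 0.42 with 4 of 8. These genes were picked by their number of clones, after the data had been seen. RSL24D1, NPM1, EEF1A1, CYCS and RPL3 had clones that were not measured on both sides, and RSL24D1 and CYCS were not bright either.

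**Figure D1:**
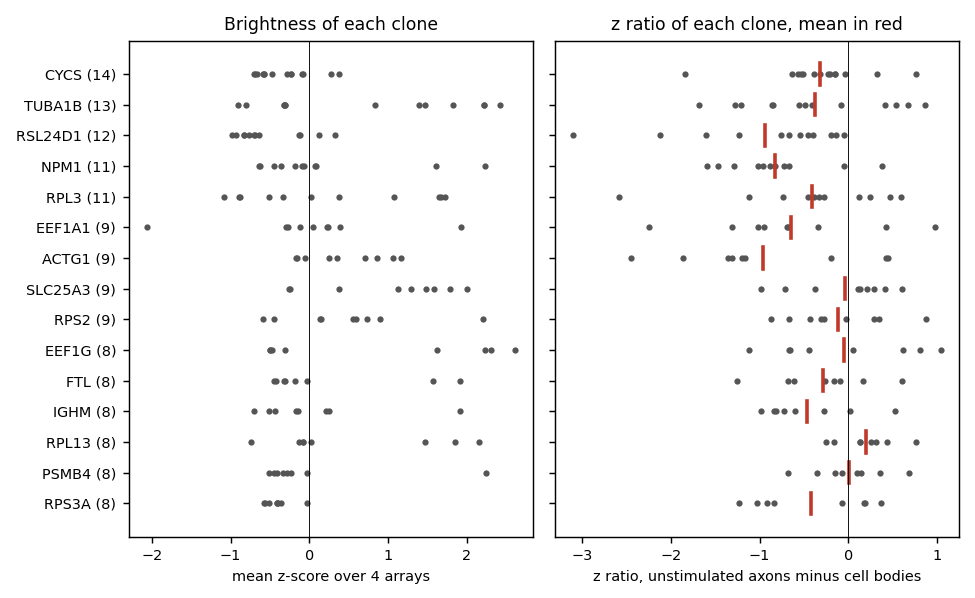
Each dot is 1 clone of a gene with 8 or more clones, with the number of clones beside the symbol. The left panel gives the mean z-score over the 4 arrays, the right panel the z ratio of unstimulated axons minus cell bodies, and the red line is the mean over clones. Clones of EEF1A1 span z-scores from -2.06 to 1.92, and all 12 of RSL24D1 have a z ratio below 0.

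Some smaller clone families held together in this comparison. They are given as examples, without a count of the families that did or did not. The 5 clones of PPIA, the peptidyl-prolyl isomerase cyclophilin A, read 35.6, 59.0, 67.0, 79.7 and 122.1 in axons, against 125.7, 185.6, 217.3, 234.7 and 400.6 in cell bodies. Each was lower in axons, and the gene stood at a z ratio of -1.14 ± 0.12, under the threshold, and at -0.72 in the stimulated pair. The 6 clones of ALDOA, the glycolytic enzyme aldolase A, had z ratios between 0.49 and 1.07, with a mean of 0.85 ± 0.23, and the gene was also above 0 in the stimulated pair. RPL13A, a protein of the large ribosomal subunit, was at 0.94 ± 0.07 over 3 clones. One of these read 93.5 in axons and 81.4 in cell bodies, another 13187 in axons and 14829 in cell bodies.

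The z ratio moved with brightness, which bears on values below 0 as well as on those above it. In the 960 brightest spots the median z ratio was 0.58 with an SD of 0.34, and in the 4 groups of 960 spots dimmer than the middle, the dimmest left out, the medians lay between -0.33 and -0.16. In the 960 dimmest, of which 596 were at or below the fill-in value, it was 0.87 with an SD of 2.14. The 384 empty spots had a median of 1.09, with median intensities of 11.8 in axons and 10 in cell bodies. With a loess curve of the difference on brightness taken out, ALDOA was at 0.45 and RPL13A at 0.57. Values with this curve taken out are given below as loess values.

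Over all 6284 genes, 210 were higher in axons (3.34%) and 181 lower (2.88%), and the median z ratio was -0.06 with 45.9% of genes above 0. Among all 6284 genes, 4796 rested on 1 clone and 5228 were measured on both sides. Of the 210 higher genes, 69 had a clone at or below 10 on an array of the pair, 186 rested on 1 clone and 107 were measured on both sides. Of the 181 lower ones, 54 had such a clone, 155 rested on 1 clone and 76 were measured. Among the 5228 genes measured on both sides this left 2.05% higher and 1.45% lower, and among the 2608 bright ones 51 higher (1.96%) and 31 lower (1.19%).

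Among bright measured genes with 2 or more clones, the lowest in axons was YWHAE, the 14-3-3 epsilon adaptor that binds phosphorylated proteins. Its clones read 52.9 and 100.8 in axons, against 391.9 and 494.8 in cell bodies, both clones lower in axons, with a z ratio of -2.08. Next came ATP6V0B, a membrane subunit of the vacuolar proton pump, with clones at 98.0 and 234.6 in axons, against 692.0 and 918.2 in cell bodies, and a z ratio of -1.81. MORF4L1, which belongs to complexes that acetylate histones, read 148.6 and 524.6 in axons, against 1197 and 1556 in cell bodies, at -1.64. For these 3 genes both clones moved the same way, although 1 clone of MORF4L1, at -0.83, and 1 of ATP6V0B, at -1.32, were under the threshold on their own. CHCHD2, a mitochondrial protein, was at -1.46, which came from 1 clone at -2.74 beside another at -0.19. It was also the gene that lost the threshold under most alternatives among these 4. The lower of its clones is next in number to a spot that read 18320 in axons and 18688 in cell bodies. The part of that spot in the value was not tested.

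The other 8 of the 12 lowest were under the threshold. PIGS, a subunit of the enzyme that attaches glycolipid anchors to proteins, was at -1.27, STAT6, the transcription factor of interleukin-4 signalling, at -1.14 and COQ4, needed to make coenzyme Q, at -1.10. GAL3ST1, which makes the myelin lipid sulfatide, was at -1.04. SKP2, a ubiquitin ligase subunit of the cell cycle, was at -1.03, MAT2A, which makes S-adenosylmethionine, at -1.02, the matrix protein SPARC at -0.98 and the keratin KRT8 at -0.97. In all 8 genes both clones were below 0. The GAL3ST1 clones, for example, read 100.6 and 120.6 in axons against 291.1 and 404.9 in cell bodies.

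At the other end stood CLTB, a clathrin light chain of coated vesicles, at 1.86. Its clones were not alike, with 193.3 in axons and 36.9 in cell bodies for one, at 3.24, and 3289 in axons and 4600 in cell bodies for the other, at 0.47. CLTB was under the threshold when only spots above the array mean were kept and when intensities were averaged over clones first. DFFA, the inhibitor of the nuclease that cuts DNA in apoptosis, was at 1.71 over 3 clones, which read 133.1, 519.9 and 543.9 in axons against 146.6, 129.5 and 314.2 in cell bodies. The first of these did not pass the threshold, at 0.55.

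Closest between clones were TSNAX and PPARD. TSNAX, which with translin forms a complex that binds and cuts RNA, read 277.4 and 350.7 in axons against 155.4 and 197.8 in cell bodies, at 1.64 and 1.65. PPARD, a nuclear receptor for fatty acids, read 216.7 and 261.7 in axons against 118.0 and 148.4 in cell bodies, at 1.66 and 1.62. In both genes each clone was higher in axons in raw intensity as well. HARS2, a mitochondrial histidyl-tRNA synthetase, was at 1.46, with clones at 1.01 and 1.92, and fell under the threshold once values were centred on membrane position. BUD23, a methyltransferase of ribosomal RNA, was at 1.4 over 3 clones, and under the threshold as a median over clones. The remaining 6 lay under the threshold, from QRSL1, which acts on mitochondrial glutaminyl-tRNA, at 1.31 to QPRT, an enzyme of NAD synthesis, at 1.12. Between them were YIPF5 of the Golgi membrane at 1.29, GATD3 at 1.26, the single-stranded DNA binding protein NABP2 at 1.24 and the lipid droplet protein PLIN3 at 1.14. In all 12 genes every clone was above 0.

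**Figure D2:**
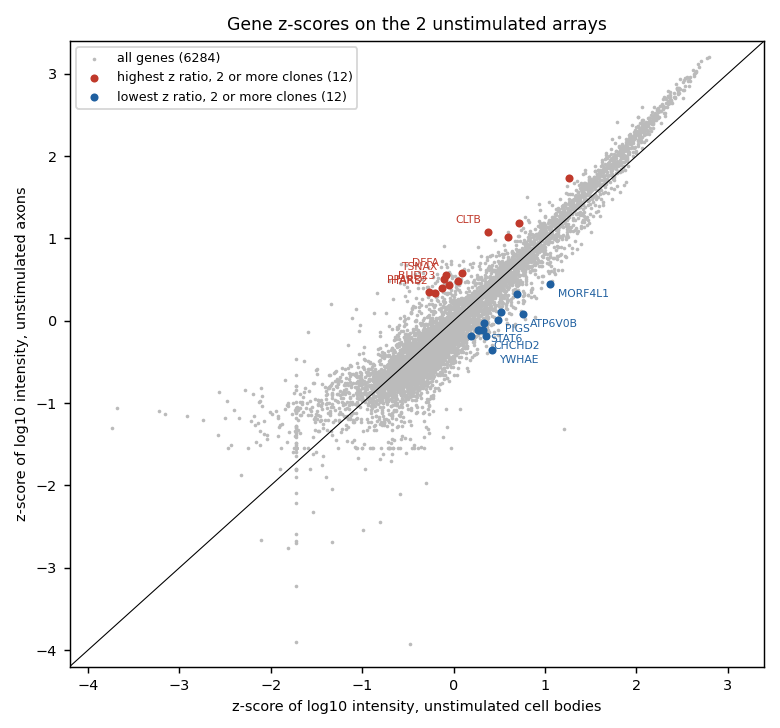
Each dot is 1 gene, placed by its z-score in unstimulated cell bodies (horizontal) and in unstimulated axons (vertical), both from log10 intensity, and the line marks equal z-scores. Red and blue dots are the 12 highest and 12 lowest z ratios among bright measured genes with 2 or more clones, of which the first 6 at each end are named. At the top right the brightest genes lie above the line, and at the bottom left dim genes scatter widely.

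The stimulated axons and stimulated cell bodies form a second pair that shares no array with the first, though it differs by the stimulation. Over the 2608 bright measured genes the z ratios of both pairs correlated at 0.773, over spots that are the same on all membranes. In the stimulated pair, 52.3% of the 2608 genes were above 0. Of the 51 genes higher in unstimulated axons, 48 were above 0 in the stimulated pair. Of these 51, 3 passed the threshold there, where 1.04% of the 2608 genes were higher. Of the 31 lower ones, 30 were below 0 in the stimulated pair and 22 passed the threshold there, where 5.79% were lower. None of the 82 passed the threshold in the opposite direction. Over all 6284 genes, 47.2% were above 0, 2.64% higher and 4.79% lower in the stimulated pair. There the same counts were 191 and 61 of 210 higher genes, and 130 and 52 of 181 lower genes. Another 3 and 8 were past the threshold in the opposite direction.

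Ranked by the smaller of both z ratios, RSRC2, named for its arginine- and serine-rich coiled coil, was among the lowest, at -2.27 in the unstimulated and -2.89 in the stimulated pair. It read 142.6 in unstimulated axons against 1016 in unstimulated cell bodies, and 119.0 in stimulated axons against 945.5 in stimulated cell bodies. IL17RB, a receptor for the cytokine interleukin-25, read 120.1 in unstimulated axons against 677.9 in unstimulated cell bodies, and 129.2 in stimulated axons against 595.8 in stimulated cell bodies. TP53I3, an oxidoreductase induced by p53, read 124.8 against 693.9 in the unstimulated axons and cell bodies, and 129.1 against 799.0 in the stimulated ones. For these 3 genes the axon arrays were alike and so were the cell body arrays. Their z ratios were -1.94 and -2.13 for IL17RB, and -1.91 and -2.53 for TP53I3.

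ATP6V0B also ranked here, at -1.81 and -2.61. GDE1, a glycerophosphodiester phosphodiesterase, was at -1.66 and -2.41, SMIM19 at -1.66 and -2.36, and SYNGR2, a synaptogyrin of vesicle membranes, at -1.64 and -2.48. ZWINT, a kinetochore protein of dividing cells, was at -1.63 and -2.28, and the zinc finger proteins ZNF704 and ZNF607 at -2.04 and -1.61, and at -1.60 and -2.28. As gene means, all 10 had intensities between 106.0 and 255.2 on the axon arrays and between 499.1 and 1025 on the cell body arrays. Apart from ATP6V0B each of them rests on 1 clone. With values centred on membrane position, GDE1, SYNGR2 and ZNF607 did not pass the threshold in the unstimulated pair.

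Each of the 10 highest in both pairs rests on 1 clone. SNHG7, a long noncoding RNA that hosts small nucleolar RNAs, read 354.4 in unstimulated axons and 107.8 in unstimulated cell bodies, and 266.0 in stimulated axons and 87.4 in stimulated cell bodies, at z ratios of 2.59 and 1.66. TMEM50B, a membrane protein, was at 2.27 and 1.48, and KCTD20 at 2.10 and 1.44. Among bright measured genes, these were the 3 past the threshold in both pairs in this direction. TIPRL, a regulator of type 2A phosphatases, had the highest z ratio of bright measured genes without stimulation, 3.38, from 416.5 in axons and 76.1 in cell bodies, and was at 1.24 with stimulation, from 218.3 in axons and 93.8 in cell bodies. LYRM2, a mitochondrial protein, was at 3.22 and 1.25, and ARL11, an ARF-like GTPase, at 2.66 and 1.30. Both TIPRL and LYRM2 were thus lower in stimulated than in unstimulated axons in raw intensity, and the change between them was not tested.

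HSCB, a co-chaperone of iron-sulfur cluster assembly, was at 1.84 and 1.24, ABRAXAS1, a scaffold of a BRCA1 complex, at 1.70 and 1.35, and the noncoding LINC00260 at 1.68 and 1.23. The 9 genes named so far read between 283.8 and 447.6 in unstimulated axons and between 76.1 and 252.1 in unstimulated cell bodies. STRADB, a pseudokinase that activates the kinase LKB1, was of another kind. It read 7472 in unstimulated axons and 4974 in unstimulated cell bodies, and 6987 in stimulated axons and 5986 in stimulated cell bodies, at 1.67 and 1.32, and its loess value was 1.18, under the threshold. Next in number to the HSCB and TMEM50B spots are spots that read 6926 and 4628 in unstimulated axons, and their part was not tested.

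**Figure D3:**
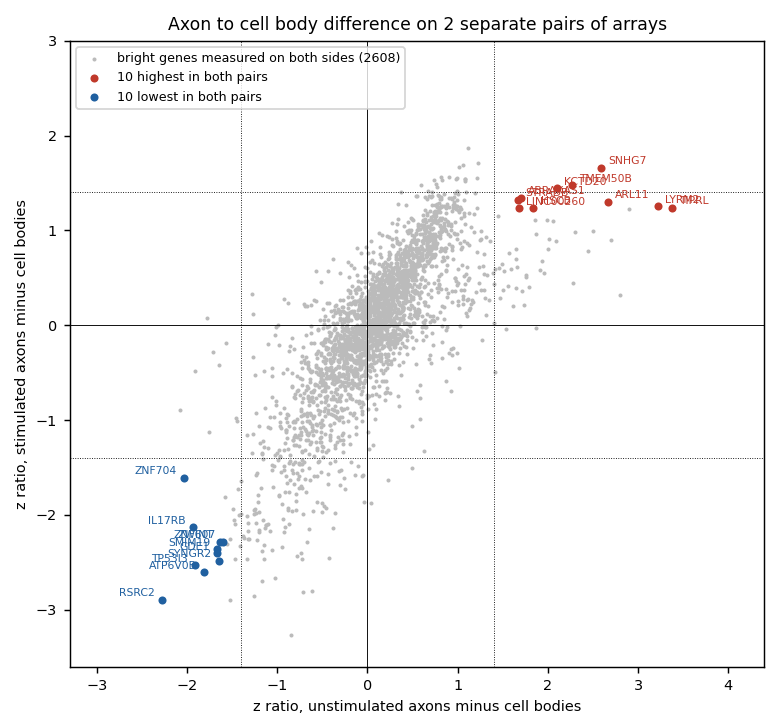
Each dot is 1 of the 2608 bright measured genes, placed by its z ratio of axons minus cell bodies in the unstimulated (horizontal) and the stimulated pair of arrays (vertical). Dotted lines mark 1.4 in size, and coloured dots are the 10 highest and 10 lowest genes by the smaller of both values. The lower left holds 22 genes past the threshold in both pairs and the upper right 3.

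**Figure D4:**
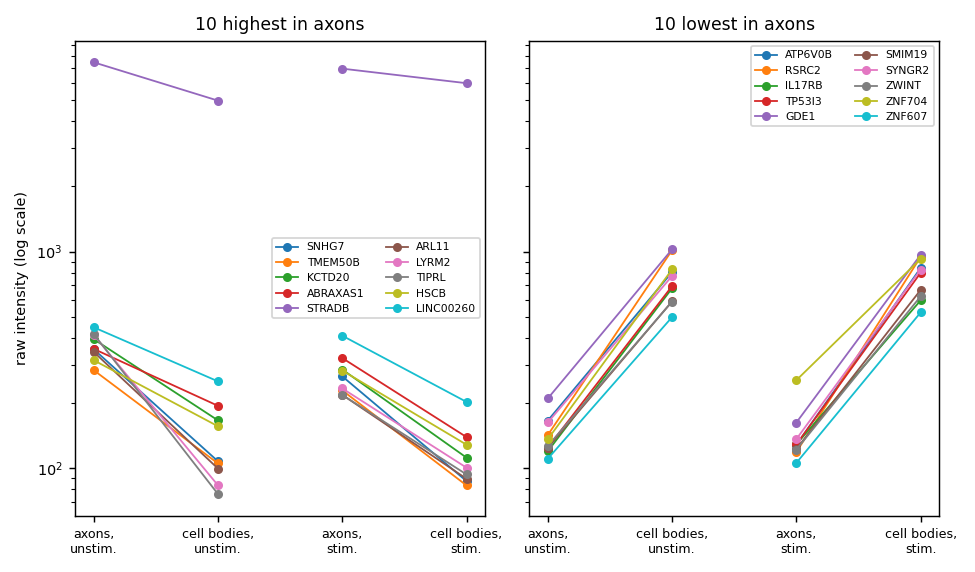
Raw intensity on a log scale of the 10 highest (left) and 10 lowest genes (right) of the plot of both pairs, each line joining the axon and the cell body array of 1 pair for 1 gene. ATP6V0B is the mean of 2 clones and every other gene is 1 clone. The 10 lowest read 106.0 to 255.2 on axon arrays and 499.1 to 1025 on cell body arrays.

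Gene groups were read as medians of their genes beside the median of all genes, -0.06, and beside the 3.34% higher and 2.88% lower over all genes. Of the 36 lists, the tricarboxylic acid cycle with pyruvate dehydrogenase, the microtubule list, the 5 genes of 14-3-3 proteins (median -0.37) and the translation factors lay among the lowest, after the 5 endothelial markers.

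Of 47 genes listed by prefix as initiation and elongation factors, 34 were below 0, 2 were higher and 2 lower past the threshold, and the median was -0.36 in the unstimulated and -0.25 in the stimulated pair. Without 8 genes that are kinases, binding proteins, methyltransferases or other non-factors the median was -0.38, with 31 of 39 below 0. The loess median of the 47 was -0.26. EIF5, which acts in start codon recognition, was lower at -1.58, from 75.6 in axons and 329.0 in cell bodies, and was at -1.88 in the stimulated pair. EIF4A2, a helicase that unwinds messenger RNA, was the other lower one, at -1.56 over 4 clones, of which not all were measured. EIF3I, a subunit of the initiation factor that holds the small ribosomal subunit, was higher at 2.47 over 2 clones, from mean intensities of 207.5 in axons and 67.2 in cell bodies, as was EIF4EBP2, an inhibitor of translation initiation, at 2.23. Both EIF3I and EIF4EBP2 were above 0 in the stimulated pair too, at 1.26 and 1.83, and both were dimmer than the array mean.

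Under the threshold, EEF1A2, the elongation factor form found in neurons and muscle, read 103.8 in axons and 401.0 in cell bodies, at -1.37, and was at -2.25 in the stimulated pair. EIF3H was at 0.93, from 10609 in axons and 11730 in cell bodies, with a loess value of 0.12. For 60 cytosolic ribosomal proteins the median was -0.23, with 35 below 0, 0 higher and 2 lower, and a loess median of -0.08. RPS24, of the small subunit, was lower at -1.65 over 2 clones, with mean intensities of 53.9 in axons and 245.8 in cell bodies, and RPL7A was the other, at -2.62, but with a clone not measured on both sides. RPL5, which carries 5S RNA into the large subunit, was at 0.82 with 8472 in axons and 9886 in cell bodies, and had a loess value of 0.08. The 16 aminoacyl-tRNA synthetases had a median of -0.08 and none past the threshold.

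The microtubule list, with tubulins, their binding proteins and neurofilaments, had 28 of 35 genes below 0, 0 higher and 3 lower, and a median of -0.41, with a loess median of -0.52 and -0.19 in the stimulated pair. Of the 3 lower genes, TBCB and TBCE, chaperones of tubulin folding, had clones at background. MAPRE3, which tracks growing microtubule ends, was measured, at -1.83, from 29.3 in axons and 142.5 in cell bodies, but was at -0.12 in the stimulated pair. Among bright genes, DPYSL5, a collapsin response mediator of axon guidance, read 201.3 in axons and 810.7 in cell bodies, at -1.38, and was at -2.23 in the stimulated pair. TUBA4A, an alpha-tubulin, was at -1.21 and -2.16, from 488.3 in unstimulated axons and 1845 in unstimulated cell bodies. NEFM, the medium neurofilament subunit, was at 0.26 and -0.41, and TBCC, a tubulin folding cofactor, at 0.69 and 0.83. The 38 motors of the kinesin, dynein and myosin families had a median of -0.20, with 23 below 0 and none past the threshold. KLC1, a light chain of kinesin that binds cargo, was at -0.90, from 120.4 in axons and 343.6 in cell bodies. At the other end, MYL3, a myosin light chain, was at 1.22, from 14106 in axons and 13086 in cell bodies, with a loess value of 0.37.

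Actin and actin-binding proteins had a median of -0.19 over 38 genes, with 24 below 0, 0 higher and 2 lower, both of them not measured on both sides. ACTN4, which crosslinks actin filaments, was at -1.13 with 98.5 in axons and 323.5 in cell bodies. TMSB10, a thymosin that binds actin monomers, was at 0.73, with 13615 in axons and 12223 in cell bodies as means over 2 clones. These clones were at 0.11 and 1.35, and the gene was at -0.21 in the stimulated pair. ARPC2, a subunit of the complex that branches actin, was at 0.90 with a loess value of -0.02.

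Among mitochondrial groups, the tricarboxylic acid cycle list had 10 of 12 genes below 0, a median of -0.42 and a loess median of -0.28, and 1 gene past the threshold. That gene was PDHA1, the catalytic alpha subunit of pyruvate dehydrogenase, at -1.58, from 300.2 in axons and 1410 in cell bodies, and it was at -1.82 in the stimulated pair, but it was under the threshold with values centred on membrane position. Mitochondrial protein import had 19 of 22 below 0 and none past the threshold, with a median of -0.23 and a loess median of -0.10. TOMM7, of the outer membrane translocase, was lowest there, at -1.10 with 583.8 in axons and 2079 in cell bodies, and at -2.10 in the stimulated pair. The respiratory chain with ATP synthase, 65 nuclear-encoded genes, stood at a median of -0.14, 0 higher and 1 lower, and the 55 mitochondrial ribosomal proteins one of -0.13, 1 higher and 0 lower. UQCR10, a small subunit of complex III, was at 1.21 with 8211 in axons and 7403 in cell bodies, and its loess value was 0.58. NDUFB6, of complex I, was at 1.12, the brightest of these genes with 27088 in axons and 27856 in cell bodies, but its loess value was -0.02.

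**Figure D5:**
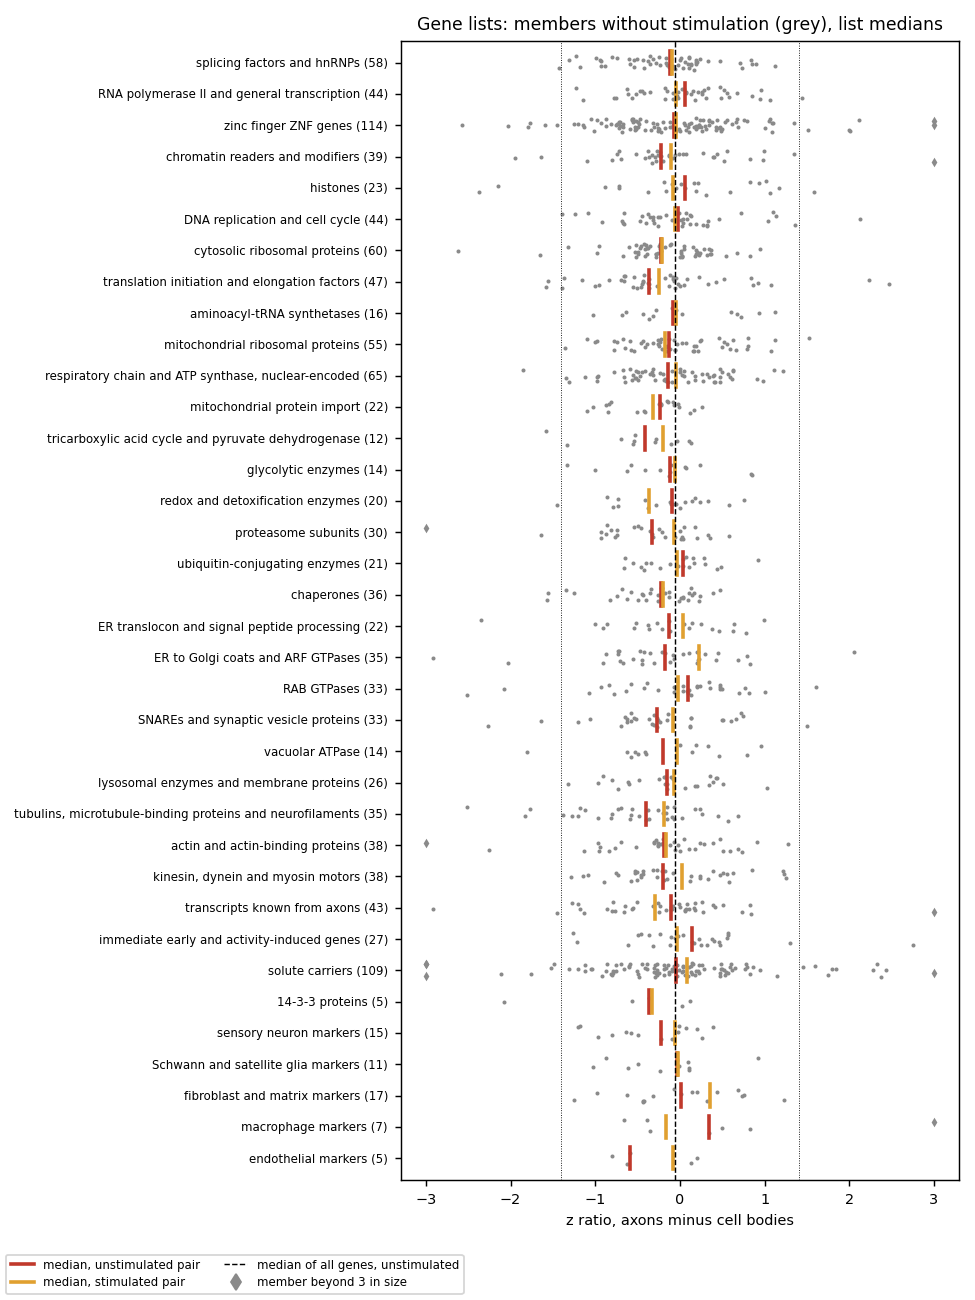
Grey dots are the z ratios of axons minus cell bodies without stimulation of the genes of each list, with the number of genes beside its name and diamonds at the edge for values beyond 3 in size. Red lines are list medians in the unstimulated pair, yellow lines in the stimulated pair, the dashed line the median of all genes (-0.06) and dotted lines the threshold of 1.4. The microtubule list (-0.41) and the tricarboxylic acid cycle (-0.42) lie to the left of the dashed line.

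In protein turnover, the proteasome list had a median of -0.33, a loess median of -0.11 and a median of -0.07 in the stimulated pair. Of its 30 genes, 21 were below 0, with 0 higher and 2 lower. PSMD11, of the regulatory particle, was the measured one, at -1.64, while PSMC6 had a clone at background. The 36 chaperones had a median of -0.23. HSPA2, an HSP70 form, read 219.3 in axons and 995.7 in cell bodies, at -1.55, and was at -2.31 in the stimulated pair. In the secretory pathway, SNAREs and synaptic vesicle proteins had a median of -0.27, and -0.09 in the stimulated pair. Of their 33 genes, 1 was higher and 2 lower. VTI1A, a SNARE of Golgi and endosome fusion, was the higher one at 1.50, from 286.3 in axons and 176.0 in cell bodies, but was at 0.37 in the stimulated pair and under the threshold with values centred on membrane position. SYNGR2 was one of the lower, and STXBP2 the other, not measured on both sides. RAB29, a GTPase of the Golgi and lysosome, was at 1.61 and at 0.20 in the stimulated pair, in a list of 33 RAB GTPases with a median of 0.10, 1 higher and 2 lower. The lower ones, RAB35 at -2.51 and RAB31 at -2.08, were not measured on both sides.

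Of the nuclear groups, splicing factors and hnRNPs had a median of -0.12 over 58 genes, RNA polymerase II and general transcription 0.06 over 44, histones 0.06 over 23, and 114 zinc finger genes -0.08 with 6 higher and 6 lower. MED31, of the mediator complex, was at 1.44, with 10149 in axons and 7965 in cell bodies, and had a loess value of 0.78, under the threshold. Chromatin readers and modifiers were at -0.22 over 39 genes. The 109 solute carriers had a median of -0.04 with 10 higher and 7 lower. SLC66A1, a lysosomal transporter of cationic amino acids, was at 2.28, from 310.0 in axons and 115.1 in cell bodies, and SLC12A9, of the cation-chloride cotransporter family, at -1.76, from 99.6 in axons and 494.6 in cell bodies, though under the threshold with values centred on membrane position. The 27 immediate early genes had a median of 0.14 with 1 higher and 0 lower.

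Of 43 genes listed as transcripts known from axons, 25 were below 0 and 18 above, with a median of -0.10 in the unstimulated and -0.29 in the stimulated pair and a loess median of 0.00. One was higher and 2 lower, and all 3, KPNB1, RHOA and TXN, had a clone not measured on both sides. Of the measured ones, STMN1, which binds tubulin dimers, was lowest at -1.28, with 46.7 in axons and 161.9 in cell bodies, then SNAP25 at -1.20, STMN2 at -1.18 and PPIA. PARK7, which guards against oxidative stress, was at -0.79 and -1.95. ATF4, a stress transcription factor, was at 0.51 over 4 clones, COX4I1, of cytochrome c oxidase, at 0.41, and STAT3, a transcription factor of cytokine and injury signalling, at 0.39. GAP43, a growth cone protein, was at -0.01, from 107.4 in axons and 169.7 in cell bodies.

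Markers of cell types were read on all 4 arrays. Of 15 sensory neuron markers, 14 were measured on both sides and 4 were above 0, with a median of -0.22. In the stimulated pair these 15 markers had a median of -0.06, beside -0.04 for all genes. Their summed intensity was 14377 in unstimulated axons and 21467 in unstimulated cell bodies, and 14958 in stimulated axons and 21416 in stimulated cell bodies. Of these, 5 were bright, ELAVL3, NEFM, RET, UCHL1 and THY1, which fibroblasts can carry as well. TUBB3, the neuronal beta-tubulin, averaged 63.7 in axons and 169.4 in cell bodies over 2 clones, at -0.80. STMN3 was at -0.97, RET, a receptor tyrosine kinase, at 0.39 and UCHL1, a neuronal deubiquitinase, at 0.07 over 3 clones.

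Schwann and satellite glia markers were near all genes, with a median of -0.03 over 11 genes, 4 of them above 0, and summed intensities of 9035 in unstimulated axons and 12824 in unstimulated cell bodies, and 10923 in stimulated axons and 12773 in stimulated cell bodies. Most of these sums was GLUL, glutamine synthetase, whose 4 clones averaged 1604 in unstimulated axons and 2120 in unstimulated cell bodies. GAP43 stands in this list and in the sensory neuron list. SOX10, the transcription factor that defines these cells, was at 0.09, MBP, of myelin, at -0.61 and CDH19, of Schwann cell precursors, at -1.02. The 17 fibroblast and matrix markers had 9 above 0 and a median of 0.01, with sums of 54705 in unstimulated axons and 60987 in unstimulated cell bodies, and 58996 in stimulated axons and 60356 in stimulated cell bodies. S100A4 was highest at 1.23, with 17852 in axons and 16671 in cell bodies and a loess value of 0.29, while the spots named VIM, PDGFRA, DCN and TIMP3 were not measured on both sides. FN1, fibronectin, was at 0.75 with a loess value of -0.04.

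Of 7 macrophage markers 4 were above 0, with a median of 0.34, a loess median of -0.08, and sums of 15678 in unstimulated axons and 19854 in unstimulated cell bodies, and 18836 in stimulated axons and 18509 in stimulated cell bodies. Most of the sum was the spot named C1QB, a complement subunit, with 13392 in unstimulated axons and 16040 in unstimulated cell bodies. CD14 passed the threshold, but read 61.0 in axons and the fill-in value of 10 in cell bodies. Of 5 endothelial markers 2 were above 0, with a median of -0.59 and a loess median of -0.66, and 3 were measured. Their sums were 1228 in unstimulated axons and 2036 in unstimulated cell bodies, and 1241 in stimulated axons and 2224 in stimulated cell bodies. Signal under glial, matrix and macrophage names was thus present on the axon array as well as under neuronal names. Most spots had signal there, so its presence does not set these names apart. In unstimulated axons, 8033 of all 8496 named clones lay above the 95th percentile of the empty spots. The part of RNA from other cells in the values above was not tested.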

How the data were processed

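The authors deposited raw phosphor imager intensities of 9600 spots on 4 arrays in 2 tables that hold the same values throughout. They had amplified the RNA, labelled it with radioactive phosphorus and hybridized it to nylon membranes, and the sources used here do not say how background was treated. Gene names came from the platform's annotation. Of the spots, 8496 name 1 gene, 21 several and 1083 none here. Of the 6284 genes, 5637 have the same symbol in mouse. Log10 intensities were turned into z-scores over all spots, and z ratios into gene means over clones. No test was run, as each group is 1 array.

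Members, lists and rules were chosen with earlier results of these data known. Named were the 12 highest and 12 lowest bright measured genes with 2 or more clones, the 10 highest and 10 lowest by the smaller z ratio of both pairs, and for each of 36 lists up to 4 bright measured members with the largest z ratios. Any measured member of the axon and cell type lists, members past the threshold and genes with 8 or more clones could be named too, the last ones chosen after seeing the data. Lists taken by prefix hold some genes that are no subunits or factors. One list and one supplement of the medium are not reported here. Python 3.11.15 with numpy 2.4.6 and pandas 2.3.3 was used, and R 4.3.3 with limma 3.58.1 for quantile, loess and normexp. On simulated data for this comparison over 6284 genes, the threshold was passed by 36 of 100 genes with a 2-fold change, 91 of 100 with a 4-fold change and 10.6% of unchanged genes. The simulated noise was set from the whole difference between axons and cell bodies over all spots, dim ones included. Changed genes were drawn from those with a clone above the array mean in cell bodies. The rates hold for that setting and are not error rates of these data, where 3.34% were higher and 2.88% lower. The alternatives were a log2 ratio with a threshold of 1, robust z-scores, quantile normalization, loess with a span of 0.3, normexp with an offset of 50, spots above the array mean, spots above 10, the other table, a threshold of 2, centring on membrane position, medians over clones and intensities averaged first. Only measured clones, and the trimmed translation list, were chosen after seeing the data.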

Additional observations from a re-analysis of the deposited data

Results flagged for a closer look

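Some values lay on opposite sides of 0 in the unstimulated and the stimulated pair of arrays, and none of these differences was tested, since each pair is 1 array a side. PIGS was at -1.27 in the unstimulated and 0.12 in the stimulated pair. Its clones were at -1.04 and -1.50 in the unstimulated pair and at 0.01 and 0.23 in the stimulated pair. List medians with opposite signs, the unstimulated pair given first, were those of RNA polymerase II and general transcription (0.056 and -0.045), histones (0.055 and -0.086), ubiquitin-conjugating enzymes (0.034 and -0.031), the ER translocon (-0.13 and 0.037), ER to Golgi coats (-0.18 and 0.22), RAB GTPases (0.098 and -0.019), motors (-0.20 and 0.028), immediate early genes (0.14 and -0.036), solute carriers (-0.045 and 0.078) and macrophage markers (0.34 and -0.16).

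Of 720 spots outside the empty places that name no gene or several genes here, 694 lay above the 95th percentile of the empty spots in unstimulated axons. Their median z ratio was -0.09, beside -0.07 for named clones.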

How the results depend on the processing

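Of the 173 genes chosen by the rules, none past the threshold changed to the opposite direction under the alternatives run. Genes named outside these, such as EIF5, EIF3I, RPS24, MAPRE3 and CD14, were named for having passed the threshold, or like NPM1 for their number of clones, and were not run under the alternatives. Besides the threshold of 2, calls were lost by STRADB and MED31 with loess and quantile normalization, by CHCHD2 with loess, spots above the array mean, centring on membrane position and intensities averaged first, by CLTB with the second and last of these, by BUD23 with medians over clones, and by HARS2, GDE1, SYNGR2, ZNF607, PDHA1, VTI1A and SLC12A9 with centring on membrane position. Counts of genes past the threshold were 210 higher and 181 lower in the unstimulated pair, and 166 and 301 in the stimulated pair. In the unstimulated pair they moved by over 1.5 times with log2 ratios (468 higher), robust z-scores (688 and 390), normexp (347 and 393), only spots above 10 (410 and 301), a threshold of 2 (86 and 67), intensities averaged first (373 and 299) and only measured clones (109 and 79). In the stimulated pair they did so with log2 ratios (636 higher), robust z-scores (1085 higher), normexp (458 lower), only spots above the array mean (89 higher), only spots above 10 (300 higher), a threshold of 2 (63 and 111), intensities averaged first (304 higher) and only measured clones (62 higher). Alternatives that drop spots count fewer genes. Only spots above the array mean left 2958 genes in the stimulated pair, 89 higher and 268 lower. The share of higher genes did not fall there, and the share of lower genes rose. Only spots above 10 left 6121 genes in the unstimulated and 6065 in the stimulated pair, and only measured clones 5626 in each. Higher genes were 53.7% of those past the threshold in the unstimulated pair, but 68.0% with log2 ratios, 63.8% with robust z-scores and 43.5% with spots above the array mean. In the stimulated pair they were 35.5%, but 60.7%, 82.1% and 24.9% with the same alternatives, 22.1% with loess and 21.5% with only measured clones. The median of all genes was -0.06, and 0.10, 0.19 and 0.05 under the first 3 of these. The direction of list medians above is that relative to the median of all genes for the translation factor, microtubule, tricarboxylic acid cycle, import, proteasome, SNARE and sensory neuron lists, which lay below it under all 12 of the main alternatives, of which the other table and the threshold of 2 cannot move a median. Of the 36 lists, 22 changed side of it at least once, among them zinc finger genes and aminoacyl-tRNA synthetases under 8 alternatives, solute carriers under 7, the respiratory chain and transcripts known from axons under 5, fibroblast markers under 4, Schwann markers under 3, actin, histones, endothelial and macrophage markers under 2, and cytosolic ribosomal proteins under 1. Over bright measured genes alone, the median was 0.09 in the unstimulated pair. Bright measured sensory neuron markers, at 0.20, and SNAREs, at 0.12, lay above that value. The proteasome list, at 0.02, and the rest of the lists said to lie below under all alternatives were below it. Of the named genes' values and list medians under the alternatives, 1954 and 323, put on the same spread, moved by less than the technical SD over the root of the number of clones or genes, 122 and 110 by more. That SD is between different clones of a gene, and is wider than the 0.592 of the same named clone between both pairs of arrays. Genes of a list on 1 array a side are not replicates either, so these counts do not measure precision. No paired analysis was possible because each group is 1 array, and leaving out a replicate was not possible either. Dim spots limit the rest, since 596 of 960 of the dimmest spots were at or below the fill-in value.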
